A study of Mus musculus with 23 samples.

Results

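The 37 mouse genes described here encode the Slit, netrin and ephrin guidance ligands and their receptors, 37 of 21938 protein-coding genes, and were chosen by family. They were 13 ligands (Slit1 to Slit3, Ntn1, Ntn4, Efna1 to Efna5 and Efnb1 to Efnb3) and 24 receptors (Robo1 to Robo4, Dcc, Neo1, Unc5a to Unc5d, 9 EphA and 5 EphB genes). Peaks of H3K27ac, the acetylated histone H3 lysine 27 of active promoters and enhancers, and of H3K27me3, the trimethylated form laid down by Polycomb at silent genes, were read around their transcription start sites (TSS) and inside the genes. No measured value entered the rule that chose the genes, but earlier results of these data were known when they were chosen.

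ChIP-seq was made on sorted cerebral cortex cells of Tg(Ebf2-EGFP)FB58Gsat mouse embryos. The 23 samples formed 12 groups, with 15 ChIP and 8 input samples, and 1 peak list stood for each of the 8 combinations of mark and cell group. Ebf2-EGFP- cells came from E11.5 embryos, and Ebf2-EGFP+ cells from embryos of that stage, of E13.5 and of E15.5, all carrying the transgene and all untreated as far as the labels say. Each list had 2 ChIP libraries behind it, except H3K27ac of Ebf2-EGFP- cells, which had 1. EGFP is driven by regulatory sequence of Ebf2 in this line, so a sorted group is a mixture of whatever cells used it, mainly preplate neurons early and Cajal-Retzius neurons late, and embryos were pooled for a sort.

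Guidance ligands steer growing axons and migrating neurons by attraction or repulsion. Secreted Slits act through Robo receptors, netrins attract through Dcc and Neo1 and repel through Unc5 receptors, and membrane-bound ephrins signal through Eph receptor tyrosine kinases in both directions at cell contacts. In the early cortex these systems set borders between cell groups, guide the first axons and position migrating neurons, among them Cajal-Retzius cells, which spread below the pia.

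The lists differed in length, from 1386 to 102881 peaks for H3K27ac and from 1438 to 48963 for H3K27me3, and read depth is unknown. Marker counts in Ebf2-EGFP+ cells stand beside shares of all protein-coding genes with H3K27ac within 5 kb of 49.9%, 60.9% and 52.3% by stage. Within 5 kb of the TSS, 7 of 8 Cajal-Retzius and preplate markers had an H3K27ac peak in Ebf2-EGFP+ cells of E11.5. It was 8 of 8 at E13.5 and 7 of 8 at E15.5, with Reln and Trp73 at each stage. In Ebf2-EGFP- cells 3 of these 8 markers had H3K27ac (Nhlh2, Reln and Tbr1) and 6 of 8 H3K27me3. Of 4 general neuron markers, 3, 2 and 3 had H3K27ac in Ebf2-EGFP+ cells by stage. In Ebf2-EGFP- cells 0 of these 4 had H3K27ac and 2 (Map2 and Stmn2) had H3K27me3. Progenitor markers were not set apart: 5, 6 and 4 of 7 had H3K27ac in Ebf2-EGFP+ cells by stage, among them Nes and Hes5. None of the 7 had it in the list labelled Ebf2-EGFP- H3K27ac, while 4 of 7 (Hes1, Nes, Sox2 and Vim) had a peak in the list labelled Ebf2-EGFP- H3K27me3. Of all protein-coding genes, 4.17% had a peak within 5 kb in that H3K27ac list and 48.2% in that H3K27me3 list. With 7 progenitor markers, counts of none and 4 are near these shares, so they cannot decide on the labels of the Ebf2-EGFP- lists. Whether the labels of these lists are right, or exchanged between marks or cells, was not tested. Every count for Ebf2-EGFP- cells below, and every pair of marks that uses one, is of the list so labelled, while the counts within Ebf2-EGFP+ cells do not use them. Markers of microglia, endothelium, mesenchyme and blood, 15 in all, had H3K27ac at 3, 8 and 3 genes in Ebf2-EGFP+ cells by stage and at none in Ebf2-EGFP- cells. Their part in the results below was not tested.

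The promoters of Efna5, Neo1, Efnb2 and Efna3 are shown as sequence, chosen because peaks of the most lists, and among equals the most bases of peaks, overlapped their 300-base window. Each run is the part upstream of the RefSeq start (GRCm38.p6, minus strand, 5′ to 3′), cut where it would enter over 30 bases of exon, and the capitals mark CpG dinucleotides, the substrate of DNA methylation.
Efna5 promoter, chr17:62881318-62881567: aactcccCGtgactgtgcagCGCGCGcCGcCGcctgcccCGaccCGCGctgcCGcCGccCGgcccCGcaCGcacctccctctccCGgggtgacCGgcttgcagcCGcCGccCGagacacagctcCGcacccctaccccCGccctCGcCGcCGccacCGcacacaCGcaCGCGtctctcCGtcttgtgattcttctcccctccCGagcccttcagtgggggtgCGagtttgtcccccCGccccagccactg
Neo1 promoter, chr9:59036585-59036691: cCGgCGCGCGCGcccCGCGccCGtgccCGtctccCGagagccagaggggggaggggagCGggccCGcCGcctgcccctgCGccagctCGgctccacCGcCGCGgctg
Efnb2 promoter, chr8:8661243-8661492: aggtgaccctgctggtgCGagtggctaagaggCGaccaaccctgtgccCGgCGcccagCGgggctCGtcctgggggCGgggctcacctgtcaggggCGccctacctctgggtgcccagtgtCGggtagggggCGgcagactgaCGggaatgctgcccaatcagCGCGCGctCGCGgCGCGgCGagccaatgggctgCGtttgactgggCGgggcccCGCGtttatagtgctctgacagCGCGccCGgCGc
Efna3 promoter, chr3:89322940-89323189: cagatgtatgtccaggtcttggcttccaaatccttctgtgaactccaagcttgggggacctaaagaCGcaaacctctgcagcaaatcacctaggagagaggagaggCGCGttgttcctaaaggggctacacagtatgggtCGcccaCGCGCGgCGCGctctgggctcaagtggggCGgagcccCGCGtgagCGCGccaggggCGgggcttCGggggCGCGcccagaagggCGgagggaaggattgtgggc
The runs of Efna5 and Efnb2 held 32 and 27 CpG in 250 bases and that of Efna3 19, while the shorter run of Neo1 held 18 in 107 bases. Peaks of 5 lists reached the window of Efna5 and peaks of 4 lists each of the others. Peaks need not cover the printed run: at Efna3 the H3K27me3 peak of Ebf2-EGFP- cells and the wide E15.5 H3K27ac peak both ended at position 89322934, before the run begins, and the E11.5 H3K27ac peak reached 89323026.

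Dense CpG was common to the family. Of the 32 genes matched in the RefSeq promoter table, 31 (96.9%) had at least 10 CpG in the 300-base window, against 59.2% of 16521 promoters, with medians of 22 and 14 CpG and of 65.2% and 57.0% GC. Robo4, an endothelial Robo, was the exception with 2 CpG. Among promoters of at least 10 CpG, a peak inside the window itself was found in E11.5 Ebf2-EGFP+ H3K27ac for 54.8% of the guidance genes and 43.3% of all, at E13.5 for 54.8% and 38.2%, at E15.5 for 61.3% and 65.1%, and in Ebf2-EGFP- H3K27me3 for 35.5% and 33.4%. The share of guidance genes was above that of the class at the first 2 stages and below it at E15.5, differences that were not tested.

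Sequence motifs were counted on both strands of the same windows. The E-box CANNTG, the general site of bHLH factors, was in 14 of 32 guidance promoters (43.8%) against 68.3% of all. Its forms, which CANNTG contains, were in few: CAGCTG in 5 (15.6% against 15.2%), CAGATG in 3 (9.38% against 14.5%) and CATATG in 0 (3.01% of all). TAATTA, a homeodomain core, was in 3 (9.38% against 4.60%) and CCCNNGGG, an Ebf-type core, in 7 (21.9% against 15.7%). No match says only that these letters are not in this window.

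H3K27ac was found at most guidance TSSs in Ebf2-EGFP+ cells and at few in Ebf2-EGFP- cells. In E11.5 Ebf2-EGFP+ cells 30 of 37 genes had a peak within 5 kb, where the background over all protein-coding genes was 49.9%. The E13.5 list had one at 31 of 37, against 60.9%, and the E15.5 list at 31 of 37 also, against 52.3%. In E11.5 Ebf2-EGFP- cells 4 of 37 had one, against 4.17%, and these were Neo1, Ephb2, Ephb6 and Efnb2. In bulk peak lists, fewer cells with a mark and less of the mark per cell cannot be told apart, and with 1 list per group no difference between groups could be tested. When each list was cut to its 1386 widest peaks, 4 genes were marked in Ebf2-EGFP- cells and 6, 1 and 4 by stage in Ebf2-EGFP+ cells, and the excess of Ebf2-EGFP+ cells was not kept at equal length.

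**Figure D1:**
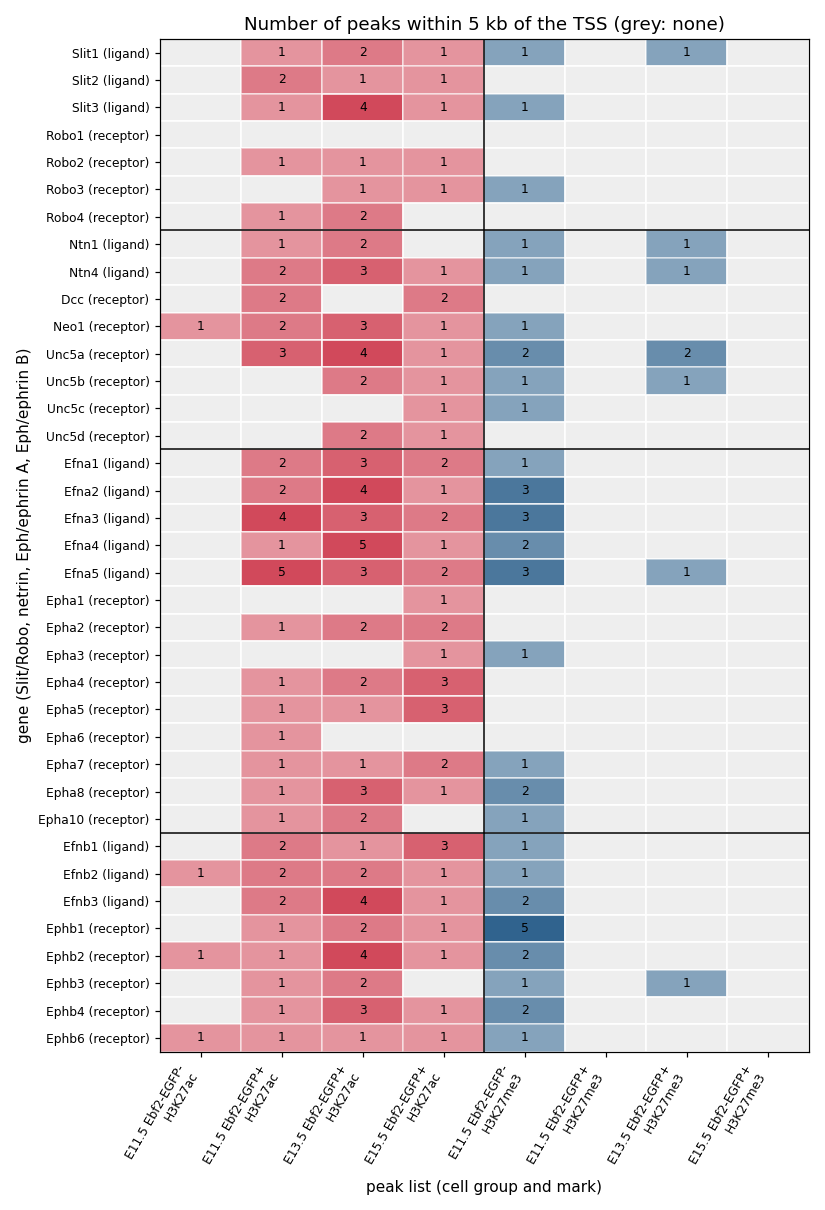
Number of peaks within 5 kb of the TSS for each of the 37 genes (vertical axis, in blocks by family) in each of the 8 lists (horizontal axis, H3K27ac in red and H3K27me3 in blue, stronger colour for more peaks and grey for none). H3K27ac fills most cells of the 3 Ebf2-EGFP+ columns, H3K27me3 fills 26 cells of the Ebf2-EGFP- column and none at E11.5 or E15.5 in Ebf2-EGFP+ cells.

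H3K27me3 at E11.5 was listed at more guidance genes in Ebf2-EGFP- than in Ebf2-EGFP+ cells. The list of Ebf2-EGFP- cells had a peak within 5 kb of 26 of 37 TSSs, against 48.2% of all genes. In Ebf2-EGFP+ cells no guidance TSS had one at E11.5 (background 4.92%), 7 had one at E13.5 (9.31%) and none at E15.5 (1.06%). When the start of any annotated transcript was counted, 3 genes (Slit3, Epha10 and Efna1) had one at E11.5. The 7 at E13.5 were Slit1, Ntn1, Ntn4, Unc5a, Unc5b, Ephb3 and Efna5. Every one of the 7 was also marked by H3K27me3 in Ebf2-EGFP- cells and by H3K27ac at E13.5. Of all genes with H3K27me3 at E13.5, 74.6% had the first of these marks and 90.1% the second. When each list was cut to its 1438 widest peaks, the count in Ebf2-EGFP- cells was 2 and those in Ebf2-EGFP+ cells were 0, 4 and 0 by stage, so most of the excess was lost at equal length. With peaks of at least 300 bp the 7 genes at E13.5 became 0.

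At E11.5, genes with H3K27me3 in Ebf2-EGFP- cells and H3K27ac in the Ebf2-EGFP+ cells numbered 22 of 37, a pair of marks held by 34.8% of all genes. They were 12 of the 13 ligands, all but Slit2, and 10 receptors (Neo1, Unc5a, Epha7, Epha8, Epha10, Ephb1, Ephb2, Ephb3, Ephb4 and Ephb6). Of the 26 guidance genes with H3K27me3 in Ebf2-EGFP- cells, 84.6% carried H3K27ac in the Ebf2-EGFP+ cells, against 72.3% of all genes so marked. Of the 11 without it, 72.7% had H3K27ac, against 29.1% of all genes without it. The 4 with H3K27me3 and no H3K27ac at E11.5 were the receptors Robo3, Unc5b, Unc5c and Epha3.

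H3K27ac at all 3 Ebf2-EGFP+ stages was found at 24 of 37 TSSs, against 33.1% of all genes, and these were 12 ligands and 12 receptors. Robo1 alone had no peak of any list within 5 kb, a state of 22.7% of all genes. That gene's 5′ end in the annotation lies far from its other start: at the RefSeq promoter 355 kb downstream, peaks of H3K27ac at E13.5 (245 and 325 bp) and E15.5 (805 and 448 bp) and of H3K27me3 in Ebf2-EGFP- cells (304 bp) were listed within 1 kb. The other 12 genes had H3K27ac at 1 or at 2 stages, and 11 of them were receptors.

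**Figure D2:**
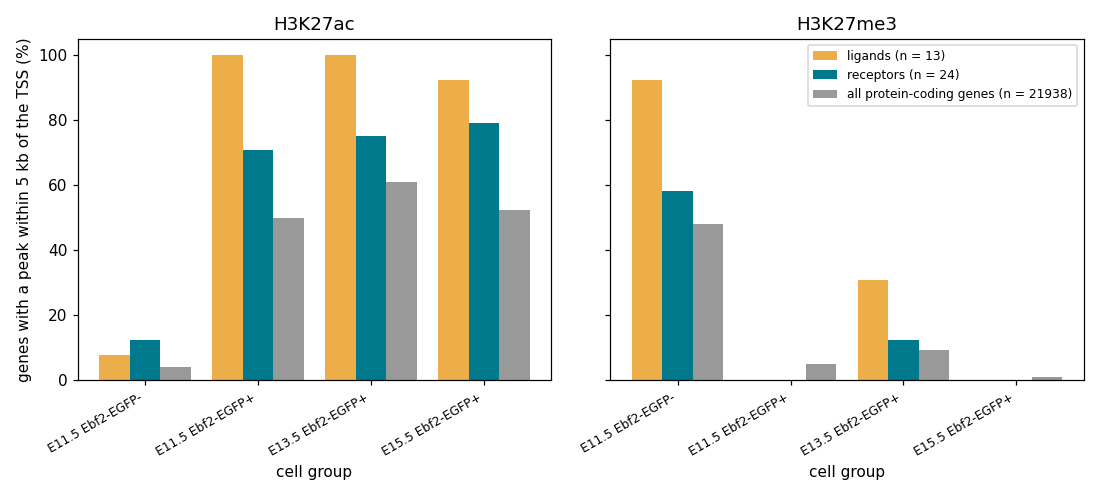
Percentage of genes with a peak within 5 kb of the TSS (vertical axis) in each cell group (horizontal axis), with H3K27ac in the left panel and H3K27me3 in the right, for the 13 ligands, the 24 receptors and all 21938 protein-coding genes. The ligand bar stands above the receptor bar in 5 of the 6 pairs of bars above 0, the exception being H3K27ac in Ebf2-EGFP- cells.

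In Ebf2-EGFP+ cells a larger share of ligands than of receptors was marked. By stage, H3K27ac lay within 5 kb of 13, 13 and 12 of 13 ligand TSSs, against 17, 18 and 19 of 24 receptor TSSs. The receptor shares were 70.8%, 75.0% and 79.2%, beside 49.9%, 60.9% and 52.3% of all genes. The full ligand counts depend on the window. Within 1 kb, the ligands Slit1 and Efna1 and the receptors Epha4 and Epha7 had no peak left at E11.5. At E13.5 the ligands Slit2, Efna4 and Efnb1 and the receptor Robo3 dropped out, and at E15.5 the receptors Robo3 and Epha1. H3K27me3 lay at 12 ligands and 14 receptors in Ebf2-EGFP- cells (92.3% and 58.3%, against 48.2% of all genes). At E13.5 in Ebf2-EGFP+ cells it lay at 4 ligands and 3 receptors (30.8% and 12.5%, against 9.31%). In Ebf2-EGFP- cells H3K27ac lay at 1 ligand (Efnb2) and 3 receptors (7.69% and 12.5%, against 4.17%). Genes of 1 class are not replicates of each other, so these shares are a description.

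The Slits, secreted repellents, all had H3K27ac at every Ebf2-EGFP+ stage. Slit1 had its peak 2273 bp upstream at E11.5 (243 bp wide), peaks at +772 and -4012 bp at E13.5 and a 414 bp peak at +217 bp at E15.5. Slit2 had 2 narrow peaks at E11.5 (152 and 142 bp), 1 of 129 bp at E13.5 and 1 of 318 bp at E15.5. Slit3 had 1, 4 and 1 peaks by stage, the widest of each 358, 439 and 522 bp. Thus Slit3 had a peak centred within 300 bp of its start at each stage, and Slit1 and Slit2 did not. H3K27me3 in Ebf2-EGFP- cells lay at Slit1 (191 bp, over the TSS) and Slit3 (356 bp) but not at Slit2.

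Among the Robo receptors, only Robo2 had H3K27ac at every stage, with 492, 145 and 469 bp peaks within 120 bp of the start. Robo3, which in commissural neurons keeps Slit repulsion down before crossing, had H3K27ac at E13.5 and E15.5, over 3 kb inside the gene, and H3K27me3 at +3583 bp in Ebf2-EGFP- cells. Robo4 had a peak of 238 bp at E11.5, peaks of 414 and 370 bp at E13.5 and none at E15.5, and it had no H3K27me3 in any list.

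The netrin ligands differed at E15.5. Ntn4, a laminin-related netrin of basement membranes, had 2, 3 and 1 H3K27ac peaks by stage. Ntn1, the classical attractant, had 1 and 2 peaks and then none, although a peak lay near another annotated transcript start of the gene at E15.5. Both carried H3K27me3 in Ebf2-EGFP- cells (256 bp at Ntn1, 182 bp at Ntn4) and again in Ebf2-EGFP+ cells at E13.5 (231 and 173 bp).

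Netrin receptors with H3K27ac numbered 3, 4 and 6 of 6 by stage. Neo1 and Unc5a were marked throughout. Unc5b and Unc5d, both repellent receptors, were marked from E13.5, with peaks of 171 and 158 bp and then 546 bp at Unc5b, and 425 bp at the widest and then 615 bp at Unc5d. Unc5c was marked only at E15.5, by a 200 bp peak over the TSS. Dcc, the attractant receptor, had 2 peaks at E11.5 (445 and 286 bp) and 2 at E15.5 (587 and 518 bp) but none at E13.5, the longest of the lists. H3K27me3 of Ebf2-EGFP- cells lay at Neo1, Unc5a, Unc5b and Unc5c and not at Dcc or Unc5d.

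The 5 ephrin-A genes, which encode lipid-anchored ligands, all had H3K27ac at every Ebf2-EGFP+ stage and H3K27me3 in Ebf2-EGFP- cells within 5 kb. Some of these peaks lay over 3 kb from the start. Efna1 had its E11.5 H3K27ac at +3267 and -4530 bp and its H3K27me3 at +3223 bp. Efna4 had its H3K27me3 at +3986 and -4025 bp and its nearest E13.5 H3K27ac peak at +3019 bp. Efna3 had 4, 3 and 2 H3K27ac peaks by stage, the widest of each 323, 532 and 2462 bp, the last being the widest TSS peak of the E15.5 list among these genes. Efna5 had 5, 3 and 2 peaks, none over 494 bp. Efna1, Efna2 and Efna4 had between 1 and 5 peaks a stage.

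Of the 9 EphA receptors, 5 (Epha2, Epha4, Epha5, Epha7 and Epha8) had H3K27ac at all stages. Epha5 had a 614 bp peak at E11.5, 596 bp at E13.5 and 3 peaks of 738, 720 and 205 bp at E15.5. Epha4, which binds both ephrin classes, had 1, 2 and 3 peaks by stage, from 1 of 169 bp to the last 3 of 547, 486 and 430 bp. Epha10 was marked at E11.5 and E13.5, and Epha6 only at E11.5, by a 194 bp peak over the TSS. Epha1 and Epha3 were marked only at E15.5, Epha3 by a 553 bp peak over the TSS. H3K27me3 in Ebf2-EGFP- cells lay at 4 of the 9 (Epha3, Epha7, Epha8 and Epha10).

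The B class was marked evenly within 5 kb, 8 of 8 genes having H3K27me3 in Ebf2-EGFP- cells and, at the first 2 stages, H3K27ac in the Ebf2-EGFP+ cells. The E13.5 H3K27ac peak of Efnb1 lay at -4840 bp, and the H3K27me3 peaks of Ephb4 at +2746 and +4237 bp. Ephb3 had no H3K27ac at E15.5 and the other 7 had it. Efnb1, Efnb2 and Efnb3, transmembrane ephrins that also signal backward into their own cell, had 2 H3K27ac peaks each at E11.5. Ephb1 had 5 H3K27me3 peaks within 5 kb in Ebf2-EGFP- cells, all inside the gene between 417 and 3267 bp from the start, and 1 H3K27ac peak of 799 bp at +420 bp in E11.5 Ebf2-EGFP+ cells. Ephb4 had 1, 3 and 1 H3K27ac peaks by stage, with widest peaks of 302, 484 and 441 bp.

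The 4 genes with H3K27ac in Ebf2-EGFP- cells also had H3K27me3 there, a pair of marks held by 3.42% of all genes. Among all genes with H3K27ac in Ebf2-EGFP- cells, however, 82.0% had H3K27me3 there too. At Efnb2, chr8:8660605-8660808 carried H3K27ac (204 bp, untranslated exon, +536 bp) and chr8:8661403-8661565 carried H3K27me3 (163 bp, 242 bp upstream), without overlap. At Ephb2 the H3K27ac peak chr4:136835796-136835952 (157 bp) overlapped the H3K27me3 peak chr4:136835595-136835882 (288 bp) by 87 bp. At Ephb6 the H3K27ac peak chr6:41605193-41605623 (431 bp, over the TSS, the widest of this list at these genes) held the H3K27me3 peak chr6:41605208-41605454 (247 bp) whole. At Neo1 the peaks stood apart, H3K27ac at chr9:59036453-59036609 (157 bp) and H3K27me3 at chr9:59035912-59036349 (438 bp).

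The same 4 genes had H3K27ac at every stage in Ebf2-EGFP+ cells. Among all genes with H3K27ac in Ebf2-EGFP- cells, 93.8% had it in E11.5 Ebf2-EGFP+ cells. By stage, the bases under H3K27ac within 5 kb were 1835, 980 and 2248 at Efnb2, 1665, 636 and 1818 at Ephb2, 1114, 651 and 2012 at Neo1 and 650, 191 and 626 at Ephb6. Each had its lowest value at E13.5. The widest TSS peaks over all 37 genes at the first 2 stages were at Ephb2 (1665 bp, chr4:136835030-136836694, over the TSS) and Efnb2 (754 bp, chr8:8659594-8660347), and of H3K27me3 in Ebf2-EGFP- cells at Unc5b (788 bp, chr10:60830630-60831417, intron).

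**Figure D3:**
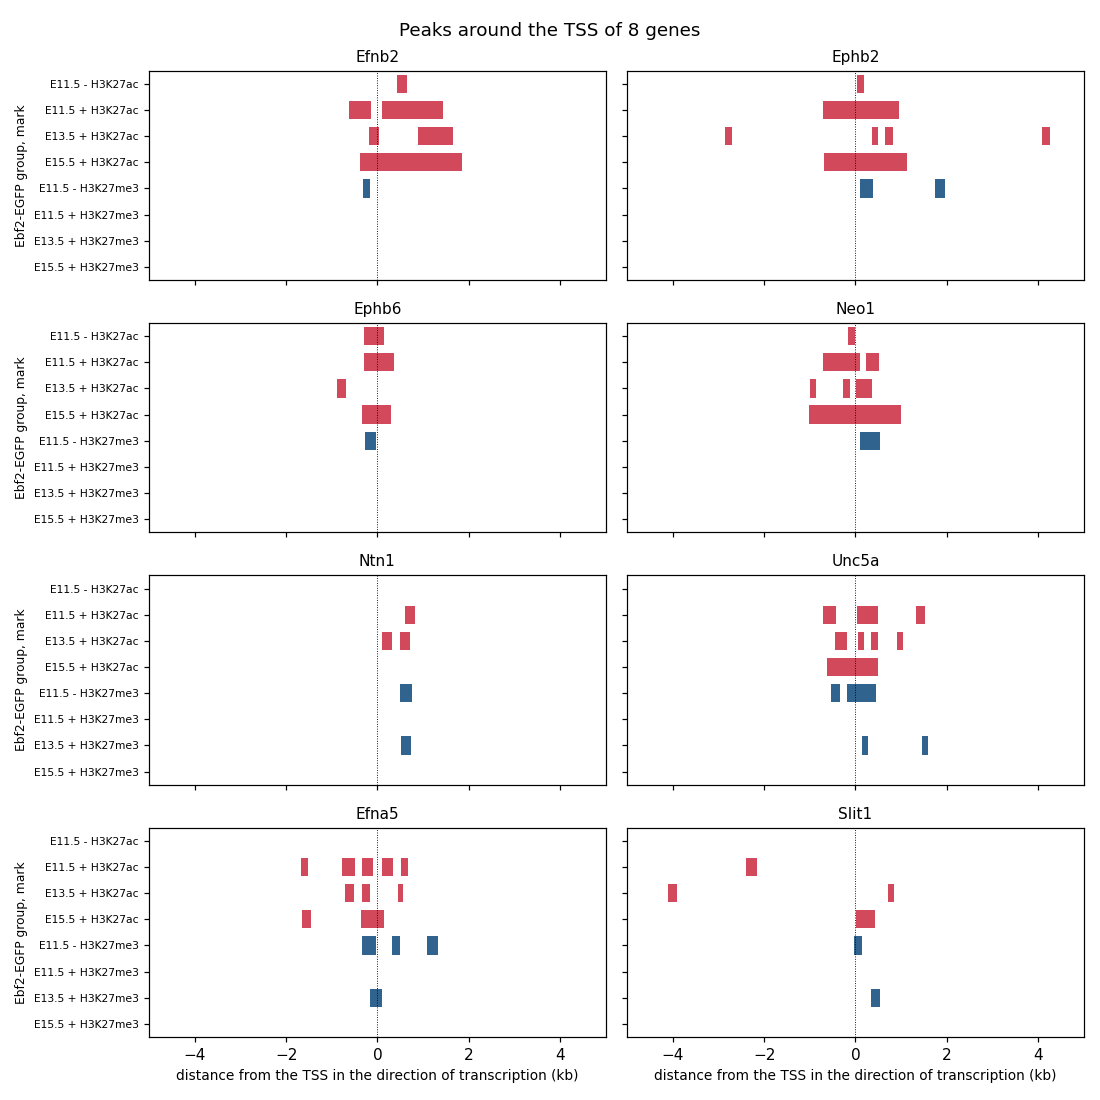
Peaks as bars drawn to scale around the TSS (dotted line) of 8 genes, by distance in the direction of transcription in kb (horizontal axis) and by list (vertical axis, H3K27ac red, H3K27me3 blue). Efnb2, Ephb2, Ephb6 and Neo1 have a red bar in the Ebf2-EGFP- row, and Ntn1, Unc5a, Efna5 and Slit1 have a blue bar at E13.5 in Ebf2-EGFP+ cells.

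Both marks of Ebf2-EGFP+ cells lay within 5 kb of 0 guidance genes at E11.5 (background 3.56%), of 7 at E13.5 (8.39%) and of 0 at E15.5 (0.752%). At Ntn1 the E13.5 H3K27me3 peak chr11:68400081-68400311 (231 bp, intron, +627 bp) overlapped an H3K27ac peak (234 bp) by 206 bp, and a second H3K27ac peak of 215 bp lay at +209 bp. At Ntn4 the overlap was 100 bp, between chr10:93641255-93641427 (H3K27me3, 173 bp) and chr10:93641328-93641594 (H3K27ac, 267 bp), and 2 more H3K27ac peaks of 170 and 399 bp lay beside it. At Unc5a 54 bp were shared by chr13:54949547-54949678 (132 bp, H3K27me3) and chr13:54949475-54949600 (126 bp, H3K27ac). Its other H3K27me3 peak (133 bp, +1524 bp) and 3 other H3K27ac peaks (273, 144 and 139 bp) met no peak of the other mark.

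At Efna5 the H3K27me3 peak chr17:62881228-62881474 (247 bp, over the TSS, the widest of its list at these genes) met an H3K27ac peak (178 bp) by 4 bp, and further H3K27ac peaks of 187 and 126 bp lay on either side. At the other 3 genes the marks did not touch. Slit1 had H3K27me3 at chr19:41743121-41743327 (207 bp, coding exon) between its H3K27ac peaks of 131 and 189 bp. Unc5b had H3K27me3 over the TSS (242 bp, chr10:60831411-60831652) and H3K27ac at +329 bp (158 bp) and at the edge of the window (171 bp). Ephb3 had H3K27me3 at +4647 bp (128 bp) and H3K27ac at +106 bp (357 bp) and +489 bp (179 bp).

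H3K27me3 peaks of at most 300 bp that overlapped H3K27ac in the same cells are given as sequence for 3 genes, those with the longest overlap that hold no exon. All are from E13.5 Ebf2-EGFP+ cells, read from the GRCm38.p6 genome of RefSeq on the plus strand, and capitals mark CpG.
Unc5c peak, intron, chr3:141610316-141610523: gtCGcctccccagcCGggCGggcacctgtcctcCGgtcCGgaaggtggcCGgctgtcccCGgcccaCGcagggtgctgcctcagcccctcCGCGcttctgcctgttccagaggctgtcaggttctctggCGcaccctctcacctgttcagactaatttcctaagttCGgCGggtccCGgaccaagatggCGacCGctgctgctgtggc
Ntn1 peak, intron, chr11:68400081-68400311: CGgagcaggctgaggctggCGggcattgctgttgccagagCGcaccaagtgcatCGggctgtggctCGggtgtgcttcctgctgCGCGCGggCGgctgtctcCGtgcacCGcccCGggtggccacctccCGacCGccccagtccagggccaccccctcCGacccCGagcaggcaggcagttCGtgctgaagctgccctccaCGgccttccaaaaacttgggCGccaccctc
Ephb2 peak, intron, chr4:136815495-136815758: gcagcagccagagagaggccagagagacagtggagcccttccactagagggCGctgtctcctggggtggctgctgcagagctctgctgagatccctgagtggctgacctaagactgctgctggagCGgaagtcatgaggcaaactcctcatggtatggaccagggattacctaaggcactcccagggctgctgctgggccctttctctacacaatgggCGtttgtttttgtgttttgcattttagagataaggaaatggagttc
The Unc5c and Ntn1 peaks held 16 CpG in 208 bases and 19 in 231, while the Ephb2 peak held 3 in 264. The overlap with H3K27ac was 208, 206 and 201 bp, and the peak of Ntn1 lay within 5 kb of the TSS while those of Unc5c and Ephb2 lay 145203 and 20362 bp into their genes.

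H3K27ac coverage of the TSS region was set side by side by stage for the 24 genes marked at all stages. By stage, the median number of bases under H3K27ac within 5 kb was 496, 643 and 653, beside 500, 429 and 810 for the 7263 genes of the genome with that pattern. More bases were covered at E15.5 than at E11.5 at 19 of 24 genes (79.2%), near the 81.7% of all such genes. The largest values were at Efna3 (883, 1024 and 2659 bases by stage) and Efnb2, and Epha4 went from 169 to 776 and 1463. Ntn4 went the other way, from 981 to 836 and 339, and Efna5 from 1073 to 491 and 678. Widths follow the list as well as the gene, since the median peak of all E15.5 H3K27ac peaks was 284 bp wide against 212 at E11.5 and 183 at E13.5.

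**Figure D4:**
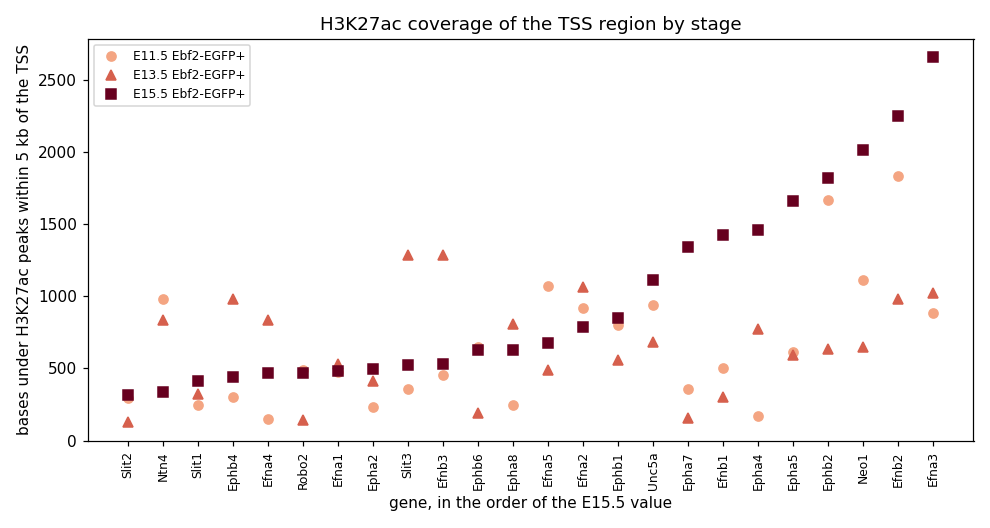
Bases under H3K27ac peaks within 5 kb of the TSS (vertical axis, from 0) for the 24 genes with H3K27ac at all 3 stages (horizontal axis, ordered by the E15.5 value), with 1 point per stage of Ebf2-EGFP+ cells. Values at E15.5 run from 318 at Slit2 to 2659 at Efna3, and 19 of 24 lie above their E11.5 value.

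Peaks inside the genes were counted from the start to the end of each gene, so peaks at the start are among them. In E11.5 Ebf2-EGFP+ cells 37 of 37 genes held at least 1 peak, against 56.6% of all genes, at E13.5 34 (68.8%), at E15.5 33 (56.5%) and in Ebf2-EGFP- cells 3 (4.92%). H3K27me3 was inside 35 genes in Ebf2-EGFP- cells (56.8%), and in Ebf2-EGFP+ cells inside 13 (14.1%), 15 (15.7%) and 3 (2.97%) by stage. Over 5 kb from the TSS, H3K27ac was left in 0 genes in Ebf2-EGFP- cells and in 24, 30 and 15 by stage in Ebf2-EGFP+ cells. The share of all genes with such a peak was not counted, so these counts stand without a background. These genes are long, with a median of 107 kb and a range from 4.64 kb (Efna4) to 1097 kb (Dcc) against a median of 17.4 kb for all genes, so shares of genes of like length (under 50 kb, 50 to 200 kb and over 200 kb) are the closer comparison. By these shares 25.9, 29.9 and 25.3 of 37 genes would hold H3K27ac in Ebf2-EGFP+ cells by stage and 26.4 H3K27me3 in Ebf2-EGFP- cells. For H3K27me3 in Ebf2-EGFP+ cells they give 9.05, 8.92 and 2.36 genes, beside the 13, 15 and 3 found.

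The number of peaks differed from that of like-length genes in opposite ways by length. At E11.5 in Ebf2-EGFP+ cells the guidance genes under 50 kb held 12.8 H3K27ac peaks per 100 kb against 5.46 for all genes of that length, while those over 200 kb held 0.580 against 1.04. At E13.5 the guidance genes were again denser than all genes of their length under 50 kb and from 50 to 200 kb, and sparser over 200 kb, at 2.18 against 3.05. Totals over all lengths hide this. In Ebf2-EGFP+ cells the 37 genes held 116, 337 and 79 H3K27ac peaks by stage, where like-length genes would hold 112, 304 and 76.8. For H3K27me3 they held 159 in Ebf2-EGFP- cells (145 by like-length genes), and, by stage in Ebf2-EGFP+ cells, 23, 26 and 4 (19.7, 20.5 and 3.73). Of the 337 at E13.5, 260 had their centre in an intron and 43 in a coding exon.

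Peaks inside the genes were concentrated in a few of them. At E13.5 Slit3 held 44 H3K27ac peaks, Ephb2 43, Ephb1 37, Slit1 25, Unc5b 21 and Ntn1 18, of 337 in all. The same 6 genes held 17, 15, 12, 9, 15 and 13 of the 159 H3K27me3 peaks of Ebf2-EGFP- cells. Per 100 kb of gene, Ephb2 held 22.8 H3K27ac peaks at E13.5 and 7.96 H3K27me3 peaks in Ebf2-EGFP- cells, and Unc5b 30.4 and 21.7. Dcc, the longest, held 0.547 and 0.364, and Robo2, Epha5, Epha6 and Epha7 each held under 1 of either per 100 kb. The highest H3K27ac densities were those of the short ligand genes Efna4 (64.7), Efna3 (55.1) and Efna1 (53.1).

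**Figure D5:**
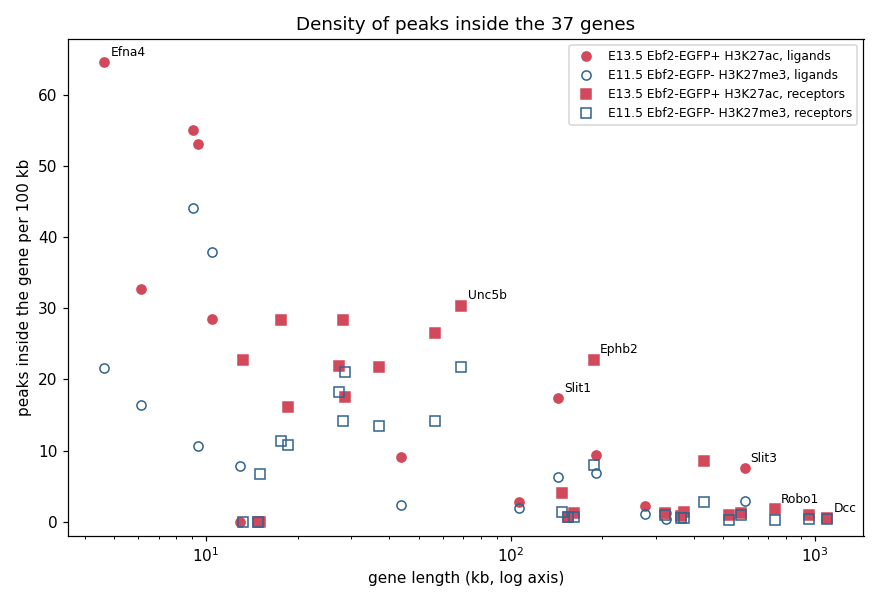
Peaks inside the gene per 100 kb (vertical axis) against gene length in kb (horizontal axis, log scale) for the 37 genes, with E13.5 Ebf2-EGFP+ H3K27ac filled in red and E11.5 Ebf2-EGFP- H3K27me3 open in blue, ligands as circles and receptors as squares. Short ephrin-A genes stand highest, up to 64.7 at Efna4, and in H3K27ac Unc5a, Unc5b, Ephb2 and Slit1 stand above the other genes between 50 and 200 kb.

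The peaks themselves were compared between lists over the TSS windows and bodies of the 37 genes, as shares with 95% Wilson intervals that cover counting only. Of 166 H3K27me3 peaks in Ebf2-EGFP- cells, 41 (24.7%, 18.8 to 31.8) overlapped an H3K27ac peak of E11.5 Ebf2-EGFP+ cells by at least 1 bp, against 21.7% over all peaks. With H3K27ac at E13.5 it was 71 (42.8%, 35.5 to 50.4) against 37.7%. With H3K27me3 of Ebf2-EGFP+ cells only 7 (4.22%, 2.06 to 8.45) overlapped at E11.5, against 2.21%. So the Ebf2-EGFP- H3K27me3 peaks met Ebf2-EGFP+ H3K27ac more often than Ebf2-EGFP+ H3K27me3, at these genes and over all peaks alike, and the lengths of the lists differ in the same order.

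Under 50% of H3K27ac peaks were shared between stages. Of 125 at E11.5, 49 (39.2%, 31.1 to 48.0) overlapped 1 at E13.5, against 36.7% over all peaks, and 36 (28.8%, 21.6 to 37.3) overlapped 1 at E15.5, against 27.5%. Of 82 at E15.5, 35 (42.7%, 32.5 to 53.5) overlapped 1 at E13.5, against 39.4%. All 4 peaks of Ebf2-EGFP- cells overlapped 1 of E11.5 Ebf2-EGFP+ cells, against 63.0% of all, an interval of 51.0 to 100. Every one of these intervals held the share of all peaks. None of the 23 H3K27me3 peaks at E11.5 in Ebf2-EGFP+ cells overlapped 1 of the 26 at E13.5, which allows up to 14.3% by the interval, beside 2.68% over all peaks.

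Within Ebf2-EGFP+ cells, H3K27me3 and H3K27ac overlapped inside 7 genes at E11.5. Of the 23 H3K27me3 peaks, 8 (34.8%, 18.8 to 55.1) overlapped H3K27ac, against 21.2% of all. They lay inside Slit1 (2 peaks), Unc5b, Unc5c, Epha3, Epha6, Epha10 and Ephb1, between 13945 and 876367 bp from the start. At E13.5 it was 11 of 26 (42.3%, 25.5 to 61.1) against 38.4%, and at E15.5 0 of 4 against 24.5%.

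The other genes of these pathways, 45 co-receptors, adaptors, kinases, GTPase regulators and further netrins, were read in the same way. H3K27ac lay within 5 kb of 8 in Ebf2-EGFP- cells (17.8%, against 4.17% of all genes). In Ebf2-EGFP+ cells it lay at 40, 39 and 39 by stage (88.9%, 86.7% and 86.7%, against 49.9%, 60.9% and 52.3%). H3K27me3 lay at 35 in Ebf2-EGFP- cells and, by stage, at 1, 5 and 0 in Ebf2-EGFP+ cells. The 34 with H3K27ac at all Ebf2-EGFP+ stages were Abl1, Abl2, Adam10, Cdc42, Chn1, Draxin, Dscam, Enah, Flrt1, Flrt2, Fyn, Gpc1, Grip1, Kalrn, Nck1, Nck2, Nell2, Ntn3, Ntng2, Pak1, Pick1, Pitpna, Ptk2, Rac1, Rasa1, Rgmb, Rhoa, Sipa1l1, Srgap2, Srgap3, Tiam1, Trio, Vav2 and Vav3. They include Srgap2 and Srgap3, GTPase activators of the Slit/Robo pathway, Draxin, which binds netrin and Dcc, and Rgmb, a ligand of Neo1. Flrt3, a Robo1 and Unc5 partner, and Ngef, an exchange factor downstream of Epha4, had no peak of any list within 5 kb of the TSS.

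Semaphorins, plexins and neuropilins, another classical guidance system, are given for scale. Of these 31 genes, H3K27ac lay within 5 kb of 0 in Ebf2-EGFP- cells (against 4.17% of all genes). In Ebf2-EGFP+ cells it lay at 24, 26 and 27 by stage (77.4%, 83.9% and 87.1%, against 49.9%, 60.9% and 52.3%). H3K27me3 lay at 23 in Ebf2-EGFP- cells and, by stage, at 4, 5 and 1 in Ebf2-EGFP+ cells. At E11.5, Sema6c, Sema3b, Sema3g and Sema6b had both marks in Ebf2-EGFP+ cells, where none of the 37 guidance genes and 3.56% of all genes had them. The counts of 4 of 31 and 0 of 37 were not tested against each other and rest on 1 TSS per gene. When the start of any annotated transcript was counted, 3 of the 37 (Slit3, Epha10 and Efna1) had both marks. The semaphorin set is not given by that count.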

How the data were processed

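The ChIP-seq peak lists of 8 groups were used, 1 per mark and cell group. According to the study's methods the authors aligned reads to mm10 with Bowtie (1.1.2 in the submitters' processing notes), allowing 3 mismatches, and called peaks with MACS at a p of 1e-05. How the 2 replicates entered a list, and whether inputs served as control, is not given in the sources used here. The score deposited by the authors was 0 for every peak, so no height could be used, and the deposited chromosome, start and end (unit other, positions) were the only values taken. Starts were read as counted from 0 and are printed counted from 1. No counts were used, so depth is unknown and no replicate error exists.

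Genes were the protein-coding genes of GENCODE M21 (GRCm38, the assembly of mm10) on chromosomes 1 to 19, X and Y, with the gene's 5′ end as TSS. A gene was marked by a peak overlapping by at least 1 bp the window of 5 kb on either side, or the gene. No other protein-coding TSS lay in a window of the 37 genes. No test was possible with 1 list per group, and shares carry 95% Wilson intervals. The members and gene lists were chosen with earlier results of these data known. Positions are given for genes with both marks in 1 cell group, genes with H3K27ac in Ebf2-EGFP- cells and the widest TSS peak of a list. Of the other pathway genes, those with H3K27ac at all Ebf2-EGFP+ stages and those with no peak were named. Sequences came from RefSeq (GRCm38.p6). The promoter table matched 32 of 37 genes, taking the start nearest the TSS. Python 3.11.15, numpy 2.4.6, pandas 2.3.3, scipy 1.17.1, pysam 0.24.0 and samtools 1.23.1 were used. Overlap counting was checked on simulated peaks. Alternatives were a 1 kb window, any annotated transcript start, lists cut to equal length by width, a minimum width of 300 bp, the gene over 5 kb from the TSS, a reciprocal overlap of 50% and merging within 1 kb.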

Additional observations from a re-analysis of the deposited data

How the results depend on the processing

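Keeping peaks of at least 300 bp lowered the TSS counts of H3K27ac to 1 of 37 in Ebf2-EGFP- cells and 18 and 16 at E11.5 and E13.5 in Ebf2-EGFP+ cells, and of H3K27me3 to 8 in Ebf2-EGFP- cells and 0 at E13.5. Inside genes it gave H3K27ac 1 and 20 (E11.5 Ebf2-EGFP- and Ebf2-EGFP+) and H3K27me3 16 in Ebf2-EGFP- cells and 1, 1 and 0 by stage, and no gene with both marks at its TSS (0 in Ebf2-EGFP- cells, 0 at E13.5). The widest peaks of lists of equal length (1386 for H3K27ac, 1438 for H3K27me3) gave TSS counts of 6, 1 and 4 for H3K27ac by stage, 2 for H3K27me3 in Ebf2-EGFP- cells and 4 at E13.5, and inside genes 6, 4 and 4 for H3K27ac and 3, 3 and 7 for H3K27me3 (Ebf2-EGFP-, E11.5, E13.5). At equal length H3K27ac in Ebf2-EGFP- cells thus lay at 4 TSSs beside 6, 1 and 4, so the excess of Ebf2-EGFP+ over Ebf2-EGFP- cells was not kept. Counting over 5 kb from the TSS, H3K27ac was inside 0 (Ebf2-EGFP-), 24 (E11.5) and 15 (E15.5) genes. With any annotated transcript start, H3K27me3 and both marks at E11.5 in Ebf2-EGFP+ cells were at 3 genes each. A reciprocal overlap of 50% lowered shares to 25.0% (H3K27ac, Ebf2-EGFP- in Ebf2-EGFP+), 16.0%, 18.3% and 22.0% (H3K27ac, E11.5 in E13.5, E15.5 in E13.5, E15.5 in E11.5), 4.35% and 7.69% (H3K27me3, E11.5 and E13.5 in Ebf2-EGFP-), 17.4% and 15.4% (H3K27me3 in H3K27ac, E11.5 and E13.5), 12.8% (E11.5 H3K27ac in Ebf2-EGFP- H3K27me3) and 20.5% (the latter in E13.5 H3K27ac). Each of these settings uses fewer peaks, other bounds or a stricter overlap by construction, and the cause was not tested further. A 1 kb window and merging within 1 kb moved no count or share beyond its limit.

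No paired analysis was possible because each group had 1 peak list, which carries no replicate, and leaving out a replicate was not possible either. Depth is unknown, so a gene without a peak is not shown to lack the mark.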

Other observations

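Peaks between 5 and 100 kb upstream were counted for each gene, without assigning them to it, since neighbouring genes lie there. At E13.5 in Ebf2-EGFP+ cells Efna2 had 34 H3K27ac peaks in that stretch, Efna3 25, Efna1 and Epha2 22 each and Efna4 21, while 9 genes (Slit3, Robo1, Robo2, Dcc, Epha1, Epha3, Epha4, Epha6 and Efna5) had 0. These counts were not compared with those of all genes. Efna1, Efna3 and Efna4 lie side by side on chromosome 3, so their stretches share peaks. Epha2 had 9, 22 and 5 H3K27ac peaks by stage and 6 of H3K27me3 in Ebf2-EGFP- cells.

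Slit2 and Slit3 each host a copy of Mir218, a microRNA of neurons. Within 5 kb of Mir218-1 in Slit2, 1 H3K27ac peak at E13.5 in Ebf2-EGFP+ cells and 1 H3K27me3 peak in Ebf2-EGFP- cells were listed. Within 5 kb of Mir218-2 in Slit3 the same pair was listed, with 1 further H3K27me3 peak at E11.5 in Ebf2-EGFP+ cells. No other list had a peak near either.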
